A study of Mus musculus with 8 samples.

Results

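*Runx2*, *Sp7*, *Nfia*, *Nfib*, *Nfic*, *Nfix*, *Klf4*, *Twist1* and *Sox9* encode transcription factors that direct mesenchymal cells toward the bone and dentin lineages or hold them back from it. The genes were chosen by name as lineage regulators and located by their Ensembl identifiers, and all 9 were among the 12148 genes measured in dental pulp (DP). RNA-Seq was performed on DP of first molars from C57BL/6J mice at postnatal day 7 (P7), with the left and right molars combined. Osterix-Cre mice, the controls, gave 4 libraries and *Tgfbr2cko* mice gave 4. Mice of both groups carried a Cre recombinase driven by the Osterix promoter, and the mutants also carried floxed alleles of *Tgfbr2*, the type II receptor for TGFβ, which the recombinase deletes in the Osterix lineage. Osterix is another name for *Sp7*, so the promoter of one of the 9 genes drives the recombinase in every mouse used, and no library came from a mouse without Cre. Libraries 49 to 52 came from Osterix-Cre mice and libraries 53 to 56 from *Tgfbr2cko* mice, by the numbers in the labels.

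RUNX2 is required to form osteoblasts, and SP7 acts downstream of it. Odontoblasts arise from neural crest mesenchyme of the dental papilla, express both factors and secrete dentin. The nuclear factor I (NFI) proteins NFIA, NFIB, NFIC and NFIX bind the same DNA motif as dimers, and NFIC is known for its role in odontoblast differentiation and root formation. KLF4 is a zinc finger protein that binds GC-rich sequence and promotes odontoblast differentiation. TWIST1 is a basic helix-loop-helix protein that binds RUNX2 and inhibits it, and SOX9 is the master regulator of cartilage that is also present in progenitors of the skeletal lineages.

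The fold changes of *Klf4* and *Nfic* had opposite signs, and the sequence before a RefSeq start site of each is shown for that comparison. RefSeq start sites on GRCm38.p6 were matched for 6 of the 9 genes (*Klf4*, *Nfia*, *Nfic*, *Nfix*, *Runx2* and *Twist1*). Each stretch has 150 bases and ends 20 bases before the start site, and capitals mark the letters GGGCGG, the core of the GC box that SP and KLF proteins bind. The *Klf4* stretch is chr4:55532496-55532645 and the *Nfic* stretch is chr10:81427194-81427343, both on the minus strand. The *Nfic* start site used, 81427173, lies inside the annotated gene (81396186 to 81455635). That of *Nfia*, 97581943, lies before the annotated gene (97772734 to 98118874). Which start sites are used in DP was not measured.
*Klf4*: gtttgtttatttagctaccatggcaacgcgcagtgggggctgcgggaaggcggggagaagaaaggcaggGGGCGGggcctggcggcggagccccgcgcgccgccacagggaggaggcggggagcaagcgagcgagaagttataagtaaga
*Nfic*: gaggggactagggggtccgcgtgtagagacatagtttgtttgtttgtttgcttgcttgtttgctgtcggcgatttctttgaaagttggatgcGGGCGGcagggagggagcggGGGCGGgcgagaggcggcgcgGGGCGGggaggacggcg
In the full window from 250 bases before to 50 bases after the start, on both strands, the *Klf4* window had 3 GC boxes and the *Nfic* window had 4. The letters were present in 35.7% of the 32851 RefSeq promoter windows of this length. *Twist1* had 1 GC box, and the *Runx2* window had 3 copies of TGTGGT, a RUNX motif present in 16.8% of all windows. *Nfix* has 4 RefSeq start sites, of which 1 window had 2 GC boxes, 2 windows had 1 copy of the RUNX motif each, and 1 window had none of the motifs searched. The NFI half-site TTGGCA, found in 14.1% of all windows, was in none of these 9 windows. The SMAD motif CAGACA, found in 21.04% of all windows, was in the *Twist1* window, and the SOX motif ACAAAG, found in 18.7%, was in 1 *Nfix* window. These are matches of letters and were not tested for binding.

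Values are given as deposited, as log2 of the counts scaled to the total of the library (log2 CPM), and come from 8682872 to 13539670 reads per library. The genotypes were compared by limma with its intensity trend (limma-trend, two-sided) over all 12148 genes with Benjamini-Hochberg adjustment. For single genes an exact permutation p is added, two-sided over all 70 arrangements, of which the smallest possible value is 0.0286. The deleted gene *Tgfbr2* had a log2 fold change of -0.29 (standard error (SE) 0.17; limma-trend p = 0.119, adjusted p = 0.79; exact permutation p = 0.143), and the library labelled Tgfbr2cko 56 had a log2 value of 7.61, inside the control range. The library labelled Osterix-Cre 49 had 7.16, level with mutant 55 at 7.16, so this gene did not separate the genotypes. In library 56 the enamel matrix genes *Amelx* and *Ambn* took 18.5% of all reads, against 0.326% to 2.74% in the other 7, although the enamel organ was removed at dissection. The odontoblast product *Dspp* averaged 13.3 on the log2 scale in the control group and 12.6 in the mutant group, as odontoblast-bearing tissue would. How many mice gave each library is not given in the sources used here, so the p-values measure the spread between these libraries. The titles carry a further number that no source explains, 4, 4, 2 and 5 for the controls and 3, 2, 2 and 3 for the mutants, so some libraries that are counted separately here share one; averaged by it, 3 controls remain against 2 mutants. In bulk tissue, fewer cells of a type and less RNA per cell cannot be told apart.

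None of the 9 factors passed an adjusted p of 0.05 in limma-trend (0 of 9, where 0.947% of all genes passed). At an unadjusted p under 0.05, 1 of 9 passed (*Nfix*, lower in the mutants), where 8.38% of all genes passed in either direction and 5.08% passed as lower. None reached the threshold of the study, an unadjusted p under 0.05 with at least 1.5-fold change (0 of 9, against 5.77% of all genes). In none were the genotypes free of overlap (0 of 9, against 5.27% of all genes). Mean values were higher in the mutants for 5 factors and lower for 4, and the median log2 fold change was 0.05, against -0.01 over all genes. The limma 95% intervals reached a median of 0.40 to either side on the log2 scale, so changes smaller than that could not be resolved for a typical factor.

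**Figure D1:**
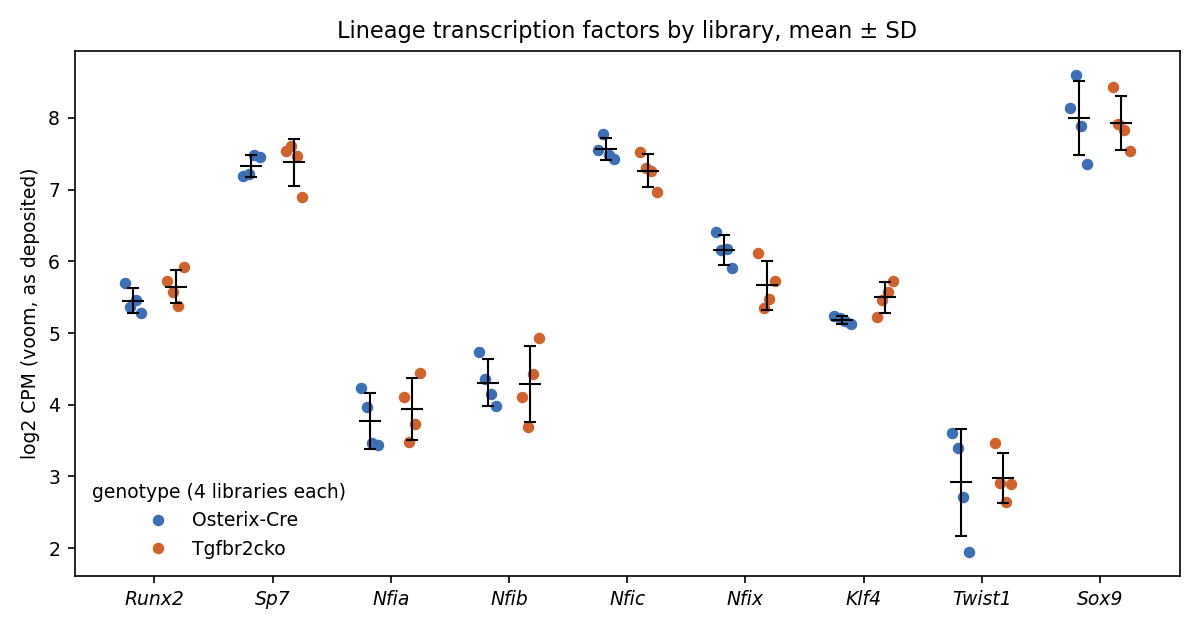
Log2 CPM of the 9 factors in each library, with 4 Osterix-Cre libraries in blue and 4 *Tgfbr2cko* libraries in orange; horizontal lines are means and error bars are SD. The genotypes overlapped for every factor, and *Twist1* was the most spread in the controls (SD 0.75).

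With all 8 libraries as deposited, *Nfix* was the 1 factor past an unadjusted p of 0.05. *Nfix* (ENSMUSG00000001911.16, chromosome 8, 84699876 to 84800344, minus strand) had log2 values of 6.41, 6.16, 6.17 and 5.90 in libraries 49 to 52 and of 6.11, 5.35, 5.47 and 5.73 in libraries 53 to 56. Mutants 54 to 56 lay below every control, and mutant 53 lay among them. Controls averaged 6.16 ± 0.21 (SD, n = 4) and mutants 5.66 ± 0.34 (SD, n = 4), a fold of 0.708. The log2 fold change was -0.50 (SE 0.18, 95% interval -0.90 to -0.10; limma-trend p = 0.0177, adjusted p = 0.358; exact permutation p = 0.0571). Without library 49, 54 or 55 *Nfix* no longer passed the unadjusted threshold (log2 fold change -0.41, -0.39 and -0.43), and without library 53 the log2 fold change was -0.65 (adjusted p = 0.100 in limma-trend).

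*Nfic* (ENSMUSG00000055053.18, chromosome 10, 81396186 to 81455635, minus strand), the NFI gene with the established role in odontoblasts, was the most abundant of the 4. Its log2 values were 7.56, 7.78, 7.49 and 7.43 in controls and 7.53, 7.31, 7.26 and 6.97 in the mutants. Mutants 54 to 56 again lay below every control, and mutant 53 lay between control values. The log2 fold change was -0.30 (SE 0.15, 95% interval -0.63 to 0.03; limma-trend p = 0.0723, adjusted p = 0.668; exact permutation p = 0.0857). The lowest value was in library 56, and without it the log2 fold change was -0.20. *Nfic* passed an unadjusted p of 0.05 without library 53 (-0.38), after quantile normalization (-0.27) and after median centring (-0.30), with adjusted p-values in limma of 0.370, 0.397 and 0.363.

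*Nfia* (ENSMUSG00000028565.18, chromosome 4, 97772734 to 98118874, plus strand) and *Nfib* (ENSMUSG00000008575.17, chromosome 4, 82290173 to 82705750, minus strand) were the least abundant NFI genes, with 105 to 295 reads per library for *Nfia* and 152 to 413 for *Nfib*. *Nfia* had log2 values of 4.23, 3.97, 3.47 and 3.43 in controls and 4.11, 3.47, 3.73 and 4.45 in the mutants. *Nfib* had log2 values of 4.74, 4.35, 4.16 and 3.98 in controls and 4.10, 3.69, 4.43 and 4.93 in the mutants. In both genes the highest value was in library 56 and the genotypes overlapped widely. The log2 fold changes were 0.16 for *Nfia* (SE 0.26, 95% interval -0.39 to 0.72) and -0.02 for *Nfib* (SE 0.26, 95% interval -0.58 to 0.54), with adjusted p-values of 0.995 and 0.998 in limma-trend.

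Divided by exon length, the 4 NFI genes together had 43.5, 45.6, 39.0 and 36.3 CPM per kilobase of exon (CPM per kb) in libraries 49 to 52 and 40.0, 31.3, 31.9 and 30.2 in libraries 53 to 56. The lower summed levels in CPM per kb were those of mutants 54 to 56. CPM is scaled to all reads of a library. *Amelx* and *Ambn* took 18.5% of the reads of library 56, which lowers the CPM of its other genes. The sum was not recomputed without these reads, so the place of library 56 in this order is uncertain. Within the family, *Nfic* made up 69.7% ± 3.30 of the summed level in controls and 70.3% ± 5.76 in mutants, and *Nfix* made up 23.9% ± 2.43 and 21.02% ± 3.16 (SD, n = 4 each). *Nfia* and *Nfib* made up the rest, at 3.12% ± 0.61 and 3.27% ± 0.57 in controls against 4.43% ± 1.51 and 4.23% ± 1.87 in mutants (SD, n = 4 each). No share differed beyond the spread of the libraries (exact permutation tests, p = 0.83 for *Nfic*, 0.2 for *Nfix*, 0.114 for *Nfia* and 0.429 for *Nfib*). In library 56 the shares of *Nfia* and *Nfib* reached 6.64% and 6.77%, the highest of the 8 libraries. The mean shares were higher in mutants by 1.31 points for *Nfia* and 0.97 for *Nfib*, and without library 56 by 0.57 and 0.12.

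*Klf4* (ENSMUSG00000003032.8, chromosome 4, 55527143 to 55532466, minus strand) was the factor with the tightest control values. They were 5.24, 5.21, 5.16 and 5.12, and the mutants had 5.23, 5.46, 5.58 and 5.73. Mutants 54 to 56 lay above every control and mutant 53 lay within the control range. The log2 fold change was 0.31 (SE 0.15, 95% interval -0.01 to 0.64; limma-trend p = 0.0590, adjusted p = 0.628; exact permutation p = 0.0571). Without library 53 it was 0.40 and passed an unadjusted 0.05 (adjusted p = 0.334 in limma-trend), and without library 56 it was 0.24.

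The difference of *Klf4* and *Nfic* within a library does not depend on how libraries are scaled to each other. *Klf4* minus *Nfic* was -2.32, -2.57, -2.32 and -2.31 on the log2 scale in libraries 49 to 52 and -2.30, -1.85, -1.69 and -1.25 in libraries 53 to 56. Every mutant lay above every control, but mutant 53 lay next to the highest control. Controls averaged -2.38 ± 0.12 (SD, n = 4) and mutants -1.77 ± 0.44 (SD, n = 4), which is 0.61 higher (p = 0.0286 by exact permutation, the lower limit of the design). Adjusted over the 8 within-library measures that were computed, the exact permutation p was 0.229. The highest differences were in mutants 55 and 56, which also had the most enamel transcripts of the 4: *Amelx* and *Ambn* took 0.437%, 0.347%, 2.74% and 18.5% of the reads of libraries 53 to 56, and without library 56 the difference was 0.44. Control 49, with 2.14% of its reads from these genes, had -2.32, like controls 51 and 52. With title numbers averaged the difference was 0.59 (exact permutation p = 0.2, the smallest that 3 against 2 allows). The part of enamel tissue in the difference was not tested.

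**Figure D2:**
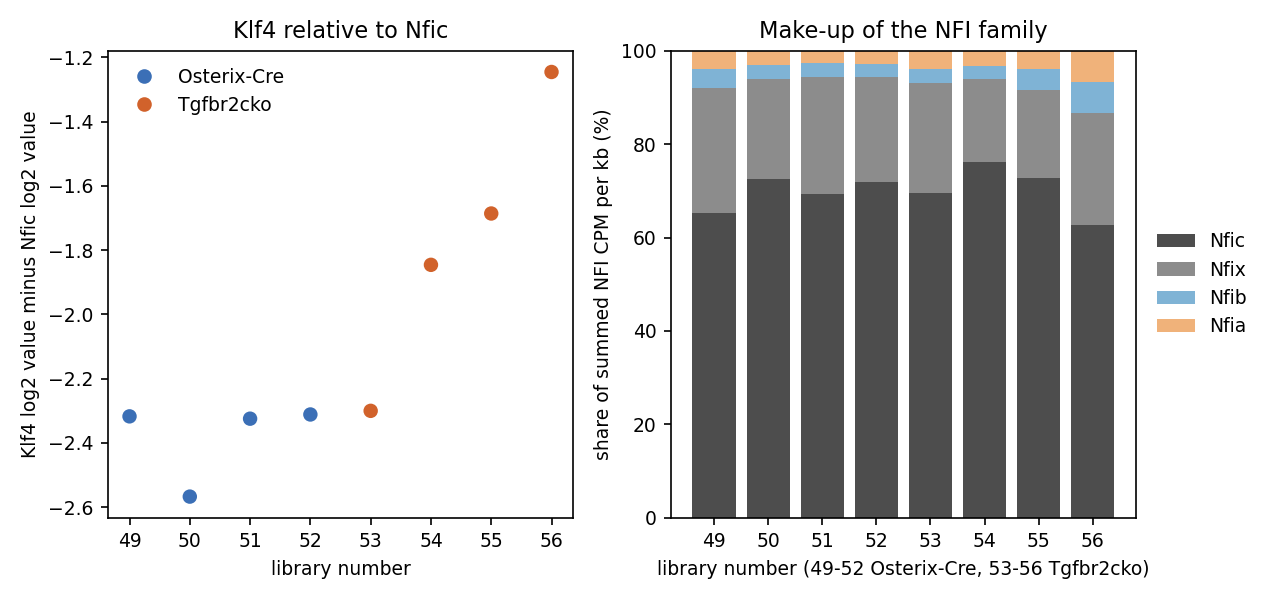
Left, *Klf4* log2 value minus *Nfic* log2 value in each library, which ran from -2.57 to -2.31 in the controls (blue) and from -2.30 to -1.25 in the mutants (orange). Right, bars that give the share in percent of each NFI gene in the summed CPM per kb of the family, by library; *Nfic* held between 62.7% and 76.3%, and *Nfia* and *Nfib* were highest in library 56.

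*Runx2* (ENSMUSG00000039153.16, chromosome 17, 44495987 to 44814797, minus strand) had log2 values of 5.69, 5.37, 5.46 and 5.28 in controls and 5.72, 5.57, 5.38 and 5.92 in the mutants. The genotypes overlapped, with the highest value in library 56. The log2 fold change was 0.20 (SE 0.16, 95% interval -0.15 to 0.55; limma-trend p = 0.247, adjusted p = 0.911; exact permutation p = 0.229), and without library 56 it was 0.11. Of the exon length of *Runx2*, 5.87% overlaps the antisense gene *Runx2os1*. Whether the counting used strand is not given in the sources used here, so reads in that overlap could belong to either gene.

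*Sp7* (ENSMUSG00000060284.6, chromosome 15, 102356606 to 102367182, minus strand) had log2 values of 7.19, 7.22, 7.48 and 7.46 in controls and 7.55, 7.61, 7.47 and 6.90 in the mutants. Mutants 53 and 54 had the highest values and mutant 56 the lowest of all 8. The log2 fold change was 0.05 (SE 0.17, 95% interval -0.32 to 0.41; limma-trend p = 0.794, adjusted p = 0.998; exact permutation p = 0.8), and without library 56 it was 0.20. *Sp7* minus *Runx2*, the downstream factor relative to the upstream one, averaged 1.89 ± 0.29 on the log2 scale in controls and 1.73 ± 0.52 in mutants (SD, n = 4 each; exact permutation test, p = 0.657).

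*Twist1* (ENSMUSG00000035799.6, chromosome 12, 33957671 to 33959829, plus strand) had the lowest log2 values, 3.61, 3.39, 2.72 and 1.95 in controls and 3.47, 2.91, 2.65 and 2.89 in the mutants. With 39 to 119 reads per library, it was the least deeply counted of the 9. The mutant values lay within the control range, and the log2 fold change was 0.07 (SE 0.34, 95% interval -0.68 to 0.81; limma-trend p = 0.852, adjusted p = 0.998; exact permutation p = 0.8). *Twist1* minus *Runx2*, the inhibitor relative to its partner, averaged -2.53 ± 0.63 in controls and -2.67 ± 0.32 in mutants (SD, n = 4 each; exact permutation test, p = 0.771).

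*Sox9* (ENSMUSG00000000567.5, chromosome 11, 112782224 to 112787760, plus strand) had log2 values of 8.13, 8.60, 7.89 and 7.36 in controls and 8.43, 7.92, 7.83 and 7.54 in the mutants. The genotypes spanned nearly the same range, and the log2 fold change was -0.07 (SE 0.25, 95% interval -0.60 to 0.47; limma-trend p = 0.794, adjusted p = 0.998; exact permutation p = 0.83). *Sox9* minus *Runx2* averaged 2.55 ± 0.49 on the log2 scale in controls and 2.28 ± 0.47 in mutants (SD, n = 4 each; exact permutation test, p = 0.486), and the difference of -0.26 became -0.034 without library 50, -0.042 without library 56, -0.42 without library 52 and -0.41 without library 53.

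**Figure D3:**
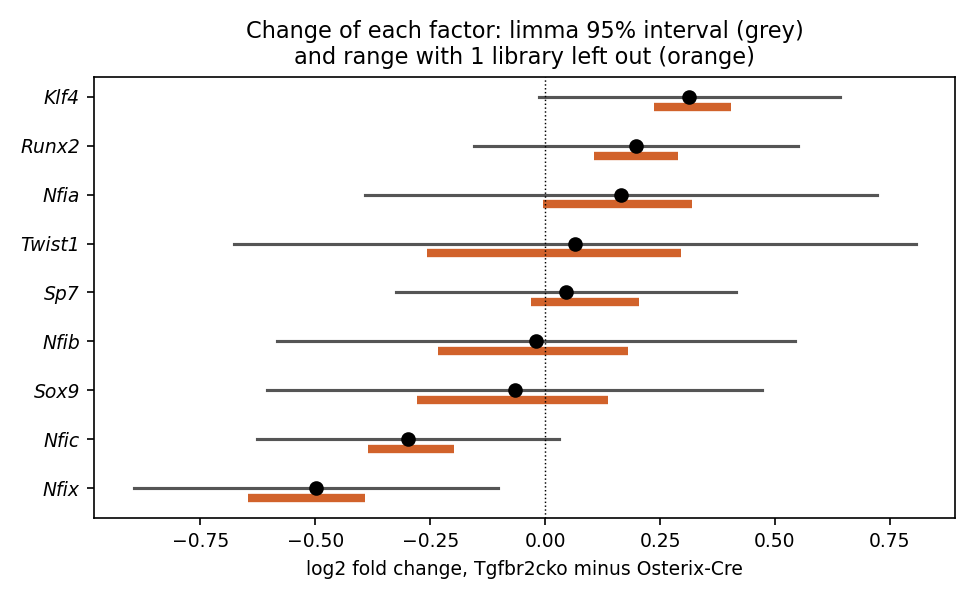
Log2 fold change (*Tgfbr2cko* minus Osterix-Cre) of each factor as a black point, its limma 95% interval as a grey line, and the range over the 8 fits that each left out 1 library as an orange bar. The interval excluded 0 for *Nfix* alone (-0.90 to -0.10); with a library left out, *Nfix*, *Nfic*, *Klf4* and *Runx2* kept their direction.

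Ordered by CPM per kb in the controls, *Sox9* (64.8) stood highest, followed by *Sp7* (47.8), *Nfic* (28.7), *Klf4* (11.9), *Nfix* (9.82), *Twist1* (5.09), *Runx2* (4.98), *Nfib* (1.35) and *Nfia* (1.29). The control ranges of neighbours overlapped for *Sox9* and *Sp7*, *Klf4* and *Nfix*, *Twist1* and *Runx2*, and *Nfib* and *Nfia*. The drop from *Sp7* to *Nfic* was present in 8 of 8 libraries, as were those from *Nfic* to *Klf4*, from *Klf4* to *Nfix*, from *Nfix* to *Twist1* and from *Runx2* to *Nfib*. Within one genotype the factors were unequally variable, from an SD of 0.052 for *Klf4* to 0.75 for *Twist1* in the controls. For 7 of the 9 the SD was larger in the mutants, as it was for 59.1% of all genes.

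Library 56 had the most enamel transcripts, and limma gave it the lowest weight of the 8 libraries (0.349, against 0.760 to 1.90 in the others). Its median over all genes was also the lowest, at 4.81 on the log2 scale against 4.92 to 5.08 in the others. How many of all genes had their highest or lowest value in library 56 was not counted. The mean log2 value of *Amelx*, *Ambn* and *Enam* was 12.1, 9.23, 9.65 and 10.2 in libraries 49 to 52 and 9.99, 9.27, 12.6 and 15.3 in libraries 53 to 56. *Nfib* was highest in libraries 56 and 49, *Nfia*, *Runx2* and *Klf4* were highest in library 56, and *Sp7* and *Nfic* were lowest there. Erythrocyte markers were also highest in these libraries, with a summed level of 2541 CPM in library 56 and 1496 CPM in library 49, against 565.6 to 765.7 CPM in the other 6. With the enamel mean added to the limma model, the log2 fold change was -0.02 for *Nfia*, -0.30 for *Nfib*, 0.12 for *Runx2* and 0.19 for *Sp7*. It was -0.20 for *Nfic* and 0.23 for *Klf4*. None of these passed an unadjusted 0.05. *Nfix*, at -0.53 in this model, passed it. In the 3 controls and 2 mutants with enamel transcripts under 1% of reads, a choice made after seeing the data, *Nfix* had a log2 fold change of -0.35 and no longer passed. In the same libraries that of *Nfic* was -0.15 and that of *Klf4* 0.18. The part of the enamel or blood transcripts in these levels was not tested.

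**Figure D4:**
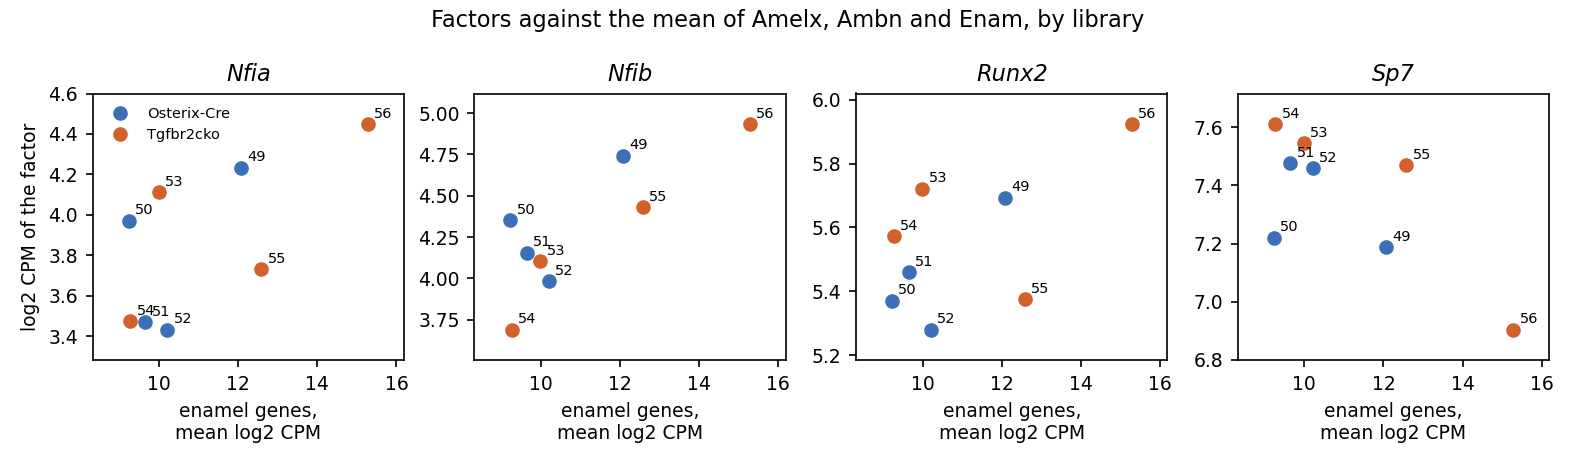
Log2 CPM of *Nfia*, *Nfib*, *Runx2* and *Sp7* against the mean log2 CPM of the enamel genes *Amelx*, *Ambn* and *Enam*, 1 point per library (blue, Osterix-Cre; orange, *Tgfbr2cko*). Library 56, at 15.3 on the horizontal axis, had the highest *Nfia*, *Nfib* and *Runx2* values and the lowest *Sp7* value.

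Among the 9 factors, 36 pairwise correlations over the 8 libraries were computed, with exact permutation p-values adjusted over the 36 by the Benjamini-Hochberg method. The strongest was that of *Sp7* with *Nfib*, which was negative (r = -0.890, exact permutation p = 0.00196, adjusted 0.0705; Spearman's rho = -0.81, p = 0.0218). Without the 2 libraries farthest from the median of *Sp7*, r was -0.67. *Nfic* and *Klf4* had an r of -0.845 (exact permutation p = 0.00516, adjusted 0.0929; rho = -0.595, p = 0.132), and -0.83 without the 2 farthest libraries. *Twist1* and *Sox9* were positively related (r = 0.837, exact permutation p = 0.0100, adjusted 0.117; rho = 0.833, p = 0.0154), with an r of 0.85 without the 2 farthest libraries. The same held for *Nfia* and *Nfib* (r = 0.819, exact permutation p = 0.0130, adjusted 0.117; rho = 0.74, p = 0.0458), with an r of 0.67 without the 2 farthest. These values pool both genotypes; over the deviations from the genotype means, r was -0.70 for *Nfic* and *Klf4*, -0.89 for *Sp7* and *Nfib*, 0.85 for *Twist1* and *Sox9*, and 0.85 for *Nfia* and *Nfib*. Over the same deviations, *Nfic* and *Sox9* had an r of 0.89 and *Sp7* and *Nfia* an r of -0.83. None of the 36 pooled relations passed an adjusted p of 0.05, and the libraries share their depth and their enamel content in each pair.

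The genes most like each factor over the 8 libraries were found by Pearson's r among the genes that averaged at least 3 on the log2 scale, 10313 in all and 10312 where the factor was one of them, as a description. For *Klf4* these included *Gli1* (r = 0.962), a target of hedgehog signalling, and *Srd5a1* (r = 0.955). For *Nfic* they were *Tram2* (0.986), *Gfra2* (0.984), a receptor for neurturin, and *Clip3* (0.981). For *Nfix* they were *Ncoa3* (0.983), *Sema4a* (0.943) and *Sgf29* (0.940). *Nfib* was most like *Hba-a2* (0.972), a haemoglobin gene, and *Nfia* like *Hras* (0.980) and *Maf* (0.967). *Runx2* was most like *Foxf2* (0.962), *Sp7* like *Rhobtb1* (0.969), *Twist1* like *Dynll1* (0.985) and *Sox9* like *Wbp4*.

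Genes around the 9 factors were read from lists, beside a background of 3.30% of all genes higher and 5.08% lower at an unadjusted p under 0.05 in limma-trend. Of 32 other regulators of osteoblasts and odontoblasts measured, 3 were higher and 1 lower at that threshold, and 0 passed an adjusted p of 0.05. The hedgehog effector *Gli1* was higher (log2 fold change 0.90, SE 0.32, adjusted p = 0.324), as were *Mef2c* (0.40, adjusted p = 0.438) and the Wnt effector *Tcf7* (0.41, adjusted p = 0.471). *Gli1* alone of these reached the threshold of the study. No gene of the list reached it as higher without library 56 or with the enamel mean in the model. The same held in the libraries with enamel transcripts under 1% of reads. The zinc finger gene *Zfp521*, which encodes a RUNX2 antagonist, was lower (-0.44, SE 0.15, adjusted p = 0.314), with every mutant below every control. *Cbfb*, the partner subunit of RUNX2, had a log2 fold change of -0.01 (SE 0.12, 95% interval -0.28 to 0.25).

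Among 10 genes of the E proteins, which pair with TWIST1, and of their Id and Hes or Hey relatives, 1 was higher and 1 lower at an unadjusted p under 0.05. *Id1*, an inhibitor of helix-loop-helix factors and a target of BMP signalling, was higher by 0.63 (SE 0.20, adjusted p = 0.236). *Heyl*, a Notch target, was lower in every mutant than in every control (-0.99, SE 0.24, adjusted p = 0.0854). Of 17 KLF and SP relatives measured, 0 were higher and 2 lower, *Klf11* (-0.76, adjusted p = 0.128) and *Sp2* (-0.49, adjusted p = 0.567). Of 9 SOX relatives measured, 0 were higher and 3 lower: *Sox17* (-1.04, adjusted p = 0.0726), *Sox18* (-0.46, adjusted p = 0.314) and *Sox7* (-0.59, adjusted p = 0.541), which are the endothelial members of the family. Endothelial markers were lower beside them, 4 of 10 at an unadjusted p under 0.05 and 0 higher, among them *Cldn5* (-1.28, adjusted p = 0.00853), and their summed level ran from 431.1 to 581.6 CPM in the controls and from 346.9 to 452.04 CPM in the mutants. Pericyte and smooth muscle markers summed to 445.4 to 588.9 CPM in the controls and 340.8 to 414.1 CPM in the mutants, with 3 of 6 lower and *Rgs5* past the adjustment (-0.83, adjusted p = 0.0212), a call that was lost without library 50, 51, 54 or 55, without the intensity trend and in the libraries with enamel transcripts under 1% of reads. The part of vessel cells in the SOX and *Heyl* values was not tested.

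Of 15 measured genes known as RUNX2 or SP7 targets, 1 was higher and 5 were lower at an unadjusted p under 0.05 in limma-trend, and the median was -0.44 on the log2 scale, or -0.17 with the enamel mean in the model. Lower were the collagens *Col1a2* (-1.22, SE 0.43, adjusted p = 0.316) and *Col5a1* (-0.66, SE 0.15, adjusted p = 0.0602), the phosphatase gene *Alpl* (-0.46, SE 0.20, adjusted p = 0.521), osteocalcin (*Bglap*, -0.72, SE 0.28, adjusted p = 0.409) and *Nes* (-0.81, SE 0.26, adjusted p = 0.235). In *Col1a2*, *Col5a1* and *Alpl* every mutant lay below every control. Reads of *Bglap* can be shared with its near-identical neighbours, so its value is uncertain. *Ibsp*, which encodes bone sialoprotein, was higher (1.24, SE 0.39, adjusted p = 0.230). Some of these targets were already named by the study from its RNA-Seq of these genotypes, so their direction is not independent evidence. The other targets included *Dspp* (-0.71, SE 0.43, 95% interval -1.65 to 0.22) and *Dmp1* (-0.44, SE 0.51, 95% interval -1.54 to 0.67). Against these, the intervals of the regulators themselves were -0.15 to 0.55 for *Runx2* and -0.32 to 0.41 for *Sp7*. Whether targets and regulators changed differently was not tested.

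The odontoblast markers, which share 3 of these lower genes (*Nes*, *Bglap* and *Alpl*), had 4 of 11 lower and 0 higher at an unadjusted p under 0.05, the fourth being *Wnt10a* (-0.68, adjusted p = 0.217). Only *Wnt10a*, *Wnt6* and *Cd63* of these markers were not also on the list of RUNX2 and SP7 targets, so the lists largely share their genes. Their summed level ran from 52637 to 106127 CPM in the controls and from 32686 to 67403 CPM in the mutants. Markers of bone and osteoclasts had 1 of 4 higher (*Ibsp*), and summed to 268.6 to 315.04 CPM in the controls and 342.8 to 503.8 CPM in the mutants. Of 9 measured cartilage targets of SOX9, 1 was higher and 0 were lower. It was *Col9a3* (0.63, SE 0.24, adjusted p = 0.419), with every mutant above every control. Macrophage and leukocyte markers had 4 of 10 lower, led by *Ptprc* (-0.96, adjusted p = 0.0660), and summed to 903.9 to 1304 CPM in the controls and 559.2 to 1241 CPM in the mutants. Enamel epithelium markers had 2 of 13 higher, among them *Cdh1*, and 1 lower, the protease gene *Klk4* (-2.71, SE 0.24, adjusted p = 0.000136), and summed to 4216 to 23677 CPM in the controls and 4503 to 196222 CPM in the mutants. Schwann cell markers had 1 of 4 higher (*Mbp*), and erythrocyte markers 0 of 5 in either direction. No marker was at 0 reads in any library, and the part of these cell types in the levels of the 9 factors was not tested.

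Counts at the unadjusted threshold moved with single libraries. Over 8 fits of 7 libraries, the RUNX2 and SP7 targets had 1 higher and 4 lower each time, the odontoblast markers 3 lower, and the endothelial markers 3 to 6 lower. The other regulators had 1 to 4 higher (1 without library 50 or 53) and 1 to 2 lower, the E protein list 1 to 2 higher and 1 lower, and the SOX relatives 0 to 1 higher and 2 to 3 lower. The KLF and SP relatives had 1 to 4 lower, with 4 without library 53 and 1 without library 50, 51, 52, 54 or 56. The SOX9 targets had 0 to 3 higher, with 0 without library 49 and 3 without library 50, and 0 to 1 lower, with 1 without library 50, 53 or 55; with title numbers averaged 3 were higher and 2 lower. Macrophage and leukocyte markers had 1 to 6 lower, with 1 without library 55 or 56 and 6 without library 53, and 1 higher without library 56. Enamel epithelium markers had 0 to 6 higher, with 6 without library 53 or 54 and 0 without library 50, 52, 55 or 56, and with title numbers averaged 8 were higher. Pericyte and smooth muscle markers had 2 to 3 lower, bone markers 1 to 2 higher (2 without library 56), Schwann cell markers 0 to 1 higher (0 without library 50) and erythrocyte markers 0 to 3 lower (3 without library 56).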

How the data were processed

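DP RNA of 8 libraries, 4 per genotype, was amplified by the authors from a low input with SMART-Seq HT and sequenced. Their processing notes name fastp 0.21.0, HISAT2 2.1.0, featureCounts of Subread 2.0.1 and GRCm38.p5. Genes were counted against GENCODE M14 and kept where the CLEAR workflow lists them as quantifiable. The deposited values are voom log2 CPM, in which 0.5 is added to each count before scaling to the library's total; all 97184 values turned back into whole reads (largest distance 1.14e-08). Strandedness is not given in the sources used here.

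Libraries were grouped by the genotype in their labels. Symbols came from GENCODE M21 (12144 of 12148 identifiers matched). In R 4.3.3 with limma 3.58.1, a moderated test with an intensity trend was fitted to the deposited log2 values of all genes and tested on simulated data; exact permutation tests used scipy 1.17.1. CPM was divided by the length of the merged exons where levels of different genes are compared. Intervals cover 95%.

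The genes named are the 9 factors, *Tgfbr2*, the enamel genes, the 3 genes most alike to each factor by Pearson's r, and from each list those with an adjusted p under 0.05 and up to 5 with the smallest unadjusted p under 0.05. *Cbfb*, *Dspp* and *Dmp1* were named after their values were seen, and 2 genes that the rule selects are not reported here. The 9 factors and the lists were chosen with earlier results of these data known. Promoters are RefSeq windows on GRCm38.p6, and figures were drawn with matplotlib 3.10.9. As alternatives, the tests were run without the trend, after quantile normalization or median centring, with weights (per library, or by voom from the recovered reads), on genes averaging at least 3 on the log2 scale, with title numbers averaged, with an enamel covariate and with each library left out. A run on the libraries with enamel transcripts under 1% of reads was chosen after seeing the data.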

Additional observations from a re-analysis of the deposited data

Results flagged for a closer look

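In 34 groups of 4 libraries, the gap of an extreme library to its nearest neighbour was compared with the whole range of its group, and 2 groups exceeded Dixon's critical value for 4; about 1 in 20 groups does so by chance. In Osterix-Cre, *Klf4* minus *Nfic* had its lowest value in library 50 (-2.57, with the other 3 controls between -2.32 and -2.31), a gap of 0.949 of the range. The share of *Nfib* in the NFI family had its highest control value in library 49 (4.11%, with the other 3 between 2.91% and 3.05%), a gap of 0.882 of the range. Library 49 also held the most enamel and erythrocyte transcripts of the controls, and their part in this share was not tested.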

How the results depend on the processing

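No factor passed an adjusted p of 0.05 in limma under any of the 17 alternatives; the lowest adjusted p was 0.0894, for *Nfix* with library weights (*Twist1*, averaging under 3, was not in the run with a filter). *Nfix*, *Nfic*, *Klf4* and *Runx2* kept their direction under all of them. At the threshold of the study 1 factor (*Nfix*) was called with library weights, and 0 to 1 with a library left out (1 without library 53). The genotypes were free of overlap for 1 factor (*Nfic*) after quantile normalization and for 0 to 3 with a library left out (*Nfic*, *Nfix* and *Klf4* without library 53). The sign of small fold changes was not stable. With a library left out, the log2 fold change ran from -0.031 to 0.20 for *Sp7*, from -0.0043 to 0.32 for *Nfia*, from -0.23 to 0.18 for *Nfib*, from -0.26 to 0.30 for *Twist1* and from -0.28 to 0.14 for *Sox9*; *Sp7* minus *Runx2* ran from -0.28 to 0.10, *Twist1* minus *Runx2* from -0.40 to 0.054 and the *Nfic* share from -1.40 to 3.13 percentage points. With title numbers averaged, *Nfib* was 0.061, *Sox9* 0.058 and *Twist1* minus *Runx2* 0.035. With the enamel covariate, *Nfia* was -0.017 and *Sox9* 0.077, and *Sox9* was 0.23 in libraries with enamel transcripts under 1% of reads. Without division by exon length the *Nfic* share was lower by 0.353 points (-0.353). The causes were not tested. Of the counts of list genes past an adjusted p of 0.05, 213 stayed within 1.5 times under the alternatives and 25 did not. Without library 56, 56.7% of all genes with an unadjusted p under 0.05 were higher in the mutants, against 39.4% with all libraries, and with the enamel covariate 57.3%, with a shift of the median gene of 0.07. *Twist1* had the fewest reads (39 to 119 per library). A fit with title number as a replicate block was not run, since the genotypes share 1 number only, held by 1 control and 2 mutants.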
